A study of Capra hircus with 6 samples.

Results

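Genes of neutrophils, the phagocytes that arrive first at a site of infection, were followed in blood cell libraries of goat kids (Capra hircus). The group was set by name as 10 genes, of which 9 have a row among the 24779 genes of the deposited count table. CXCR1, CXCR2 and CSF3R encode surface receptors, S100A8 and S100A9 calcium-binding proteins, and LTF, LCN2, MMP9 and MPO proteins of the granules. S100A12 has no row under that symbol and was not analysed here. The study set peripheral blood mononuclear cells of kids fed the milk of does (3 libraries) against those of kids fed milk replacer (3 libraries), to ask which genes differ in expression. The sources used here do not give the age, breed or sex of the kids or the way the cells were isolated. The libraries are called doe 1, doe 2, doe 3, replacer 1, replacer 2 and replacer 3. The genes were chosen with the values of doe 1, doe 2 and replacer 1 in view, so that the contrast between those libraries is given for them as a description, with no test. The labels call the libraries biological replicates but do not name the animals, so that p-values measure only the spread between these libraries.

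CXCR1 and CXCR2 are receptors for CXCL8 and related chemokines and draw neutrophils out of the blood. CSF3R binds granulocyte colony-stimulating factor (G-CSF), which drives neutrophil production. Granule proteins are made mostly in the bone marrow, where MPO is made early and LTF, LCN2 and MMP9 later, so that the mature cell in blood carries the proteins with little of their mRNA. S100A8 and S100A9 pair as calprotectin and are made by monocytes as well as by neutrophils. Mononuclear cell preparations are meant to leave neutrophils out, but some are usually carried over.

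The 6 libraries were of 2 kinds. Counts in doe 1, doe 2 and replacer 1 correlated weakly with the genomic span of the gene, with a Spearman correlation across genes, which are not independent replicates, of 0.374 to 0.387. These libraries, of 48063350 to 57204363 counts, are called transcript-like. In doe 3, replacer 2 and replacer 3 the correlation was 0.893 to 0.896, and these libraries, of 25023210 to 27129143 counts, are called span-proportional and shown apart. The transcript-like libraries carried lymphocyte and monocyte markers of the labelled cells, with CD3E of T cells at 479, 405 and 490 CPM (counts per 1000000 counts of the library) and CD14 of monocytes at 120.5, 100.7 and 137 CPM. In the span-proportional libraries CD3E stood at 13.3 to 23.3 CPM and CD14 at 8.69 to 10.9 CPM. By CD3E and CD14 they thus do not show the labelled cell type. Not every marker was low there, with VCAN of monocytes at 191, 85.2 and 87.3 CPM in doe 3, replacer 2 and replacer 3. These CPM were not adjusted for gene span.

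Among the transcript-like libraries, the receptors were lowest in the replacer-milk library. CXCR1 stood at 119 and 28.8 CPM in doe 1 and doe 2 and at 3.89 CPM in replacer 1. The replacer-milk library lay 30.5-fold below the higher and 7.41-fold below the lower doe-milk library. The fitted log2 fold change, replacer milk against doe milk after scaling by the trimmed mean of M values (TMM), was −4.35 (SE 1.54). CXCR2 stood at 163 and 58.8 CPM against 16.6 CPM, which is 9.85-fold and 3.55-fold lower (log2 fold change −2.85, SE 0.91). CSF3R stood at 249 and 117 CPM against 70.2 CPM, which is 3.54-fold and 1.66-fold lower (log2 fold change −1.49, SE 0.58). All 3 receptors thus had the same order of libraries, with doe 1 highest. Of the 17356 genes in this fit, 33.2% had their lowest TMM-scaled level in replacer 1. With 1 replacer-milk library, being lowest there therefore says little by itself. In bulk RNA, fewer cells of a type and less RNA per cell cannot be told apart.

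The receptors also differed within the same feed. Doe 1 exceeded doe 2 by 4.12-fold for CXCR1, 2.77-fold for CXCR2 and 2.13-fold for CSF3R. Of the 13568 genes with a mean of at least 1 CPM in the transcript-like libraries, the median difference between these libraries, in either direction, was 1.17-fold, and 98.8%, 97.5% and 95.04% of the genes differed by less than CXCR1, CXCR2 and CSF3R. The choice of the doe-milk library therefore sets much of the size of each receptor's fold change. Without doe 1 the log2 fold changes were −3.01 for CXCR1, −1.95 for CXCR2 and −0.85 for CSF3R. Without doe 2 they were −5.04, −3.41 and −1.94. CXCR1 and CXCR2 are neighbouring genes in the ARS1.2 gene table and similar in sequence, and how reads that match both were counted is not known, so that the split between them is uncertain. ARPC2, an actin regulator that is the next gene on the other side of CXCR1, stood at 774 and 876 CPM against 743 CPM.

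**Figure D1:**
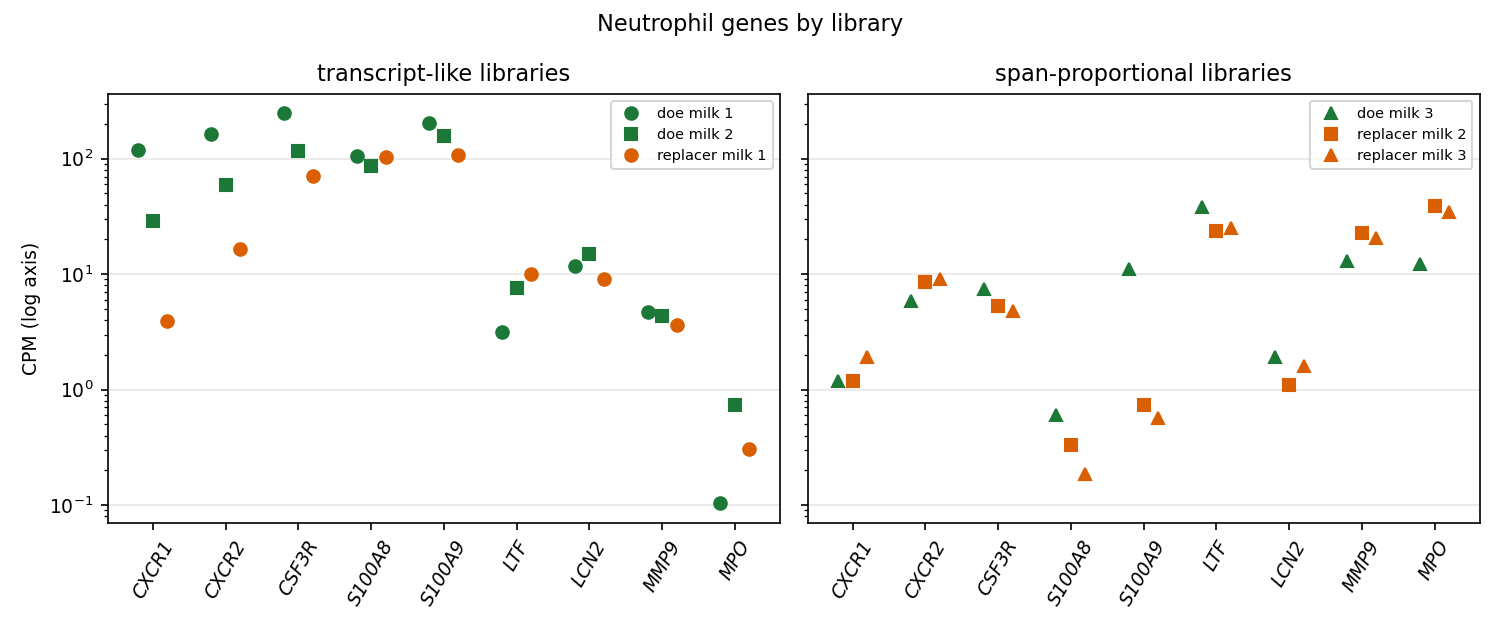
CPM on a log axis for the 9 genes, 1 point per library, with transcript-like libraries on the left and span-proportional libraries on the right. In the left panel CXCR1 runs from 119 and 28.8 CPM in doe milk to 3.89 CPM in replacer milk, while S100A8 stays between 85.9 and 106 CPM.

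S100A8 showed no such order. Its level was 106 CPM in doe 1, 85.9 CPM in doe 2 and 104 CPM in replacer 1, inside the range of the doe-milk libraries (log2 fold change 0.0052, SE 0.22). Its partner S100A9 stood at 206 and 157 CPM against 107 CPM, below both doe-milk libraries (log2 fold change −0.87, SE 0.24). The count of S100A9 was 1.93 and 1.83 times that of S100A8 in the doe-milk libraries and 1.03 times in replacer 1. This ratio is free of library scaling, and that of replacer 1, a single library, lay below both doe-milk values. The share of other gene pairs that do so was not counted, so that nothing is read from this position. In the ARS1.2 gene table the only protein-coding gene between them is listed as LOC102169149. It stood at 231 and 248 CPM against 269 CPM, above both doe-milk libraries only before TMM scaling.

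Ratios within a library are given as a description, since the members were chosen with these libraries in view. The share of other gene pairs with such ratios was not counted, so that nothing is read from them. CXCR2 had 1.53 and 0.685 counts per count of S100A8 in doe 1 and doe 2 and 0.159 in replacer 1. For CXCR1 the ratios were 1.12 and 0.336 against 0.0374, and for CSF3R 2.34 and 1.36 against 0.675. The ratio of CXCR2 to CXCR1 also varied between the libraries. CXCR2 had 1.37 and 2.04 counts per count of CXCR1 in the doe-milk libraries and 4.25 in replacer 1. Against the monocyte marker CD14, CXCR2 stood at 1.35 and 0.584 counts per count in doe milk and 0.121 in replacer milk. S100A8 stood at 0.882 and 0.853 against 0.759, and S100A9 at 1.71 and 1.56 against 0.782. Each of these ratios to CD14 was lowest in replacer 1. Other monocyte markers were not used as the denominator.

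**Figure D2:**
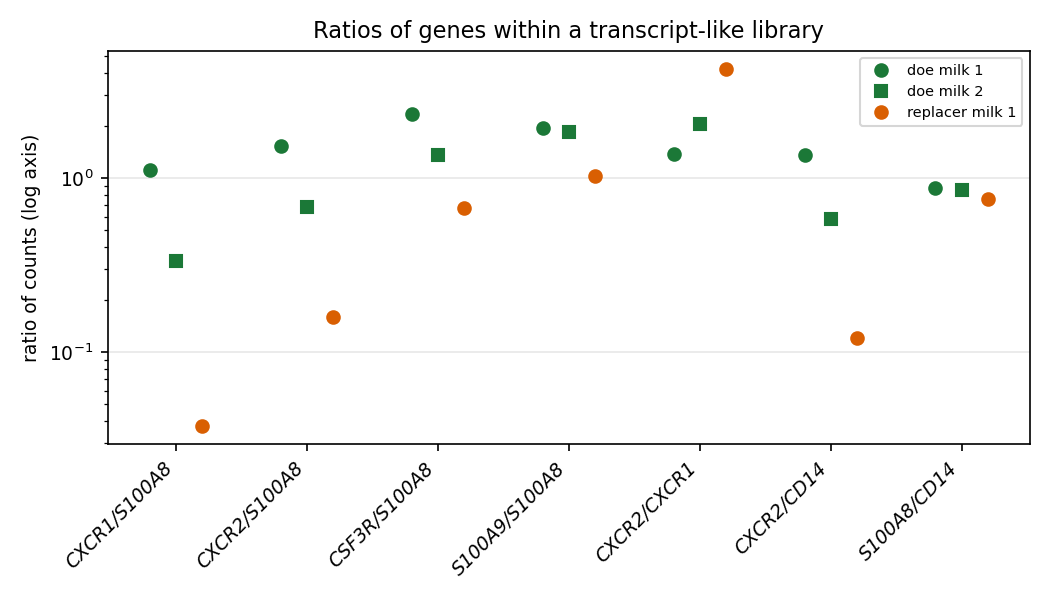
Ratio of the counts of 2 genes within each transcript-like library, on a log axis. CXCR1 over S100A8 runs from 1.12 and 0.336 in doe milk to 0.0374 in replacer milk. S100A8 over CD14 runs from 0.882 and 0.853 to 0.759.

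The granule proteins went in different directions. LTF, the iron-binding lactoferrin, stood at 3.16 and 7.62 CPM in doe 1 and doe 2 and at 10.1 CPM in replacer 1. It was the only member above both doe-milk libraries (log2 fold change 0.79, SE 0.57), and the doe-milk libraries themselves differed by 2.41-fold. LCN2, a lipocalin that binds bacterial siderophores, stood at 11.9 and 15.0 CPM against 9.02 CPM, below both (log2 fold change −0.69, SE 0.30). LTF and LCN2 belong to the same secondary granules. The count of LTF per count of LCN2 was 0.266 and 0.509 in doe milk and 1.12 in replacer milk. Other gene pairs were not counted for this ratio either, so that nothing is read from it.

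MMP9, the gelatinase of tertiary granules, stood at 4.66 and 4.37 CPM against 3.60 CPM. Replacer milk lay below both doe-milk libraries, but the 95% exact Poisson interval of replacer 1 (3.11 to 4.16 CPM) overlapped those of doe 1 (4.07 to 5.31 CPM) and doe 2 (3.85 to 4.95 CPM). Such intervals cover counting error only. MPO, the myeloperoxidase of primary granules, had few counts, with 5, 42 and 16 counts in doe 1, doe 2 and replacer 1, or 0.104 and 0.734 against 0.308 CPM. Replacer milk lay between the doe-milk libraries. Its log2 fold change was −0.57 and became 1.43 without doe 2.

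Over the 9 members, 6 lay below both doe-milk libraries and 1 above both after TMM scaling, where 33.2% of the 17356 genes tested lay below both and 34.4% above both. The median log2 fold change was −0.69 over the members and −0.0057 over all genes tested. Since the members were chosen on this contrast, nothing is read from these counts. The replacer-milk side is 1 library and is assumed in the fit to vary like the doe-milk libraries.

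**Figure D3:**
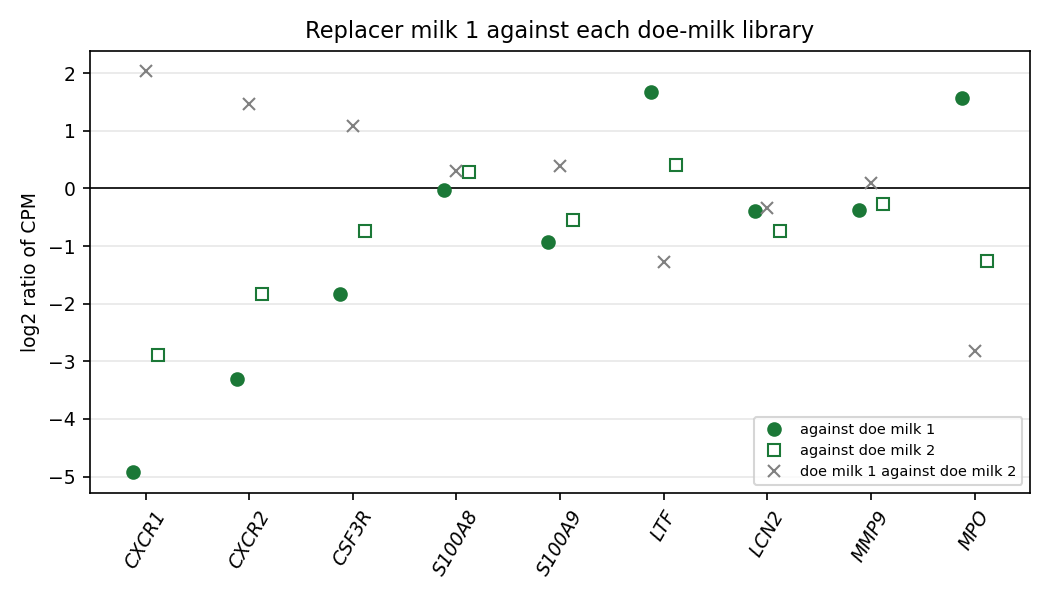
Log2 ratio of CPM for each gene, replacer 1 against doe 1 (filled circles) and against doe 2 (open squares), with the ratio of doe 1 to doe 2 as crosses. Both symbols lie below 0 for CXCR1, CXCR2, CSF3R, S100A9, LCN2 and MMP9, above 0 for LTF, and on both sides for S100A8 and MPO.

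When all 6 libraries were fitted together, no member passed. In simulated counts with known changes, this fit recovered 0% of the 2-fold and 0% of the 4-fold changes. The lack of calls is therefore not read as a lack of difference. edgeR's quasi-likelihood test, with a threshold of 0.05 on the Benjamini-Hochberg adjusted p, was run on 21431 genes, of which 0 passed (0% in each direction) and 123 had an unadjusted p below 0.05, and every member had an adjusted p of 0.987. DESeq2 called 1 gene, which is not a member. The fitted log2 fold changes were −4.88 (SE 1.95) for CXCR1, −3.26 (SE 1.54) for CXCR2, −2.40 (SE 1.99) for CSF3R, −1.88 (SE 2.43) for S100A9, −1.53 (SE 1.54) for LCN2 and −0.99 (SE 2.72) for S100A8. They were positive for LTF (0.27, SE 0.78), MMP9 (0.69, SE 0.75) and MPO (2.53, SE 1.84). For 0 of the 9 members did the feeds separate without overlap, against 1.08% of genes lower and 1.89% higher in all replacer-milk libraries. The spread in this fit includes that between the 2 kinds of library. Without replacer 1 the log2 fold changes were −9.11 for S100A8, −8.73 for S100A9, −5.77 for CSF3R and −3.95 for LCN2, and without doe 3 that of MPO was 4.73. Leaving out replacer 1 leaves only span-proportional libraries on the replacer-milk side, and leaving out doe 3 only transcript-like ones on the doe-milk side. Feed and library kind cannot be told apart in these values.

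The span-proportional libraries were not used in choosing the members. In them the members were set against the count that their gene span alone would give, taken from the median count per kb of 12142 autosomal protein-coding genes of at least 10 kb. The receptors had fewer counts than their span gives. The ratio was 0.337, 0.363 and 0.587 for CXCR1 in doe 3, replacer 2 and replacer 3. It was 0.434, 0.693 and 0.732 for CXCR2 and 0.714, 0.555 and 0.504 for CSF3R. No receptor therefore stood above the count from its span in these libraries. How far other genes spread around that count was not measured, so that whether these ratios are unusual is not known.

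S100A9 was among the genes with more counts in doe 3. It had 276 counts there, 5.35 times the count from its span (95% exact Poisson interval 4.74 to 6.02), and 20 and 15 counts in replacer 2 and replacer 3, or 0.391 and 0.297 times. S100A8 had 15, 9 and 5 counts, or 0.654, 0.396 and 0.223 times, and its interval in doe 3 (0.366 to 1.08) reached the count from span. Of 12 other S100 genes tested in these libraries with edgeR, 6 passed as lower and 1 as higher in replacer milk at an adjusted p of 0.05, where 36.5% and 36.7% of all genes did. Their median log2 fold change was −0.84. It was −4.90 for S100A4, at 14.6 CPM in doe 3 against 0.405 and 0.412 CPM, and 0.028 for S100A10. Lower counts in replacer milk were thus not particular to S100A9 among the S100 genes. The other S100 genes were not set against their span, so that whether they share its excess in doe 3 is not known. MPO, unlike S100A9, was higher in the replacer-milk libraries, at 1.59 times the count from span in doe 3 and 5.49 and 4.88 times in replacer 2 and replacer 3. MMP9 stood at 2.45 against 4.69 and 4.18 times, LTF at 1.699 against 1.16 and 1.22 times, and LCN2 at 0.567 against 0.357 and 0.519 times.

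**Figure D4:**
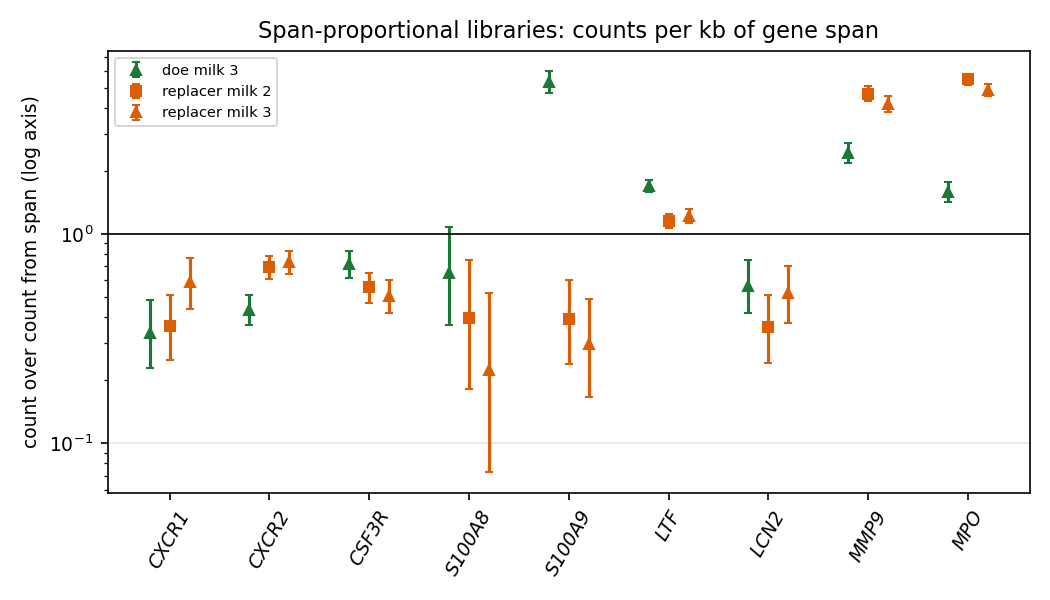
Counts of each gene in the span-proportional libraries divided by the count expected from its genomic span, on a log axis, with 95% exact Poisson intervals that cover counting error only. S100A9 in doe 3 stands at 5.35 while both replacer-milk libraries stand below 1, and MPO stands at 1.59 against 5.49 and 4.88.

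Between the feeds, 5 of the 9 members passed edgeR's test within the span-proportional libraries. S100A9 was lower in replacer milk (log2 fold change −3.84, SE 0.29, adjusted p = 5.24e-13), as was LTF (−0.41, SE 0.099, adjusted p = 0.000562). MPO (1.82, SE 0.12, adjusted p = 1.99e-14), MMP9 (0.97, SE 0.13, adjusted p = 1.46e-07) and CXCR2 (0.83, SE 0.20, adjusted p = 0.000445) were higher. The background was high, with 36.5% of 22232 genes lower and 36.7% higher at the same threshold, so that 2 lower and 3 higher of 9 is close to the share of all genes. By size, 1.68% of genes had a lower fold change than S100A9 and 92.2% a lower one than MPO. CXCR2 was thus higher in replacer milk here and lower in the transcript-like contrast. With DESeq2 the call for LTF was lost (adjusted p = 0.0568). Doe milk is 1 library in this fit, and replacer 2 and replacer 3 lie close together, so that the p-values may measure technical spread. Differences in these counts are not shown to be differences in transcripts.

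Other neutrophil genes were read in the transcript-like libraries by function, with positions below or above both doe-milk libraries counted after TMM scaling. For every list, the shares to set beside these counts are 33.2% below both and 34.4% above both, over the 17356 genes tested. Of 8 chemotaxis and adhesion genes in the table, 3 lay below both doe-milk libraries and 2 above both (median log2 fold change −0.12). The chemokine receptor CXCR4, which holds neutrophils in the marrow and is also carried by lymphocytes, stood at 466 and 528 CPM against 812 CPM. The integrin subunit ITGB2 stood at 419 and 546 against 501 CPM, and PTAFR, the receptor of platelet-activating factor, at 148 and 160.5 against 125 CPM. Of these, CXCR4 lay above both doe-milk libraries and PTAFR below both.

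Genes of the granules were mixed as well. Of 7 other primary granule genes, 4 lay below both doe-milk libraries and 1 above both (median log2 fold change −0.52). ELANE, the neutrophil elastase, stood at 3.50 and 1.45 against 0.964 CPM, BPI, which kills Gram-negative bacteria, at 58.9 and 37.1 against 47.2 CPM, the protease inhibitor SERPINB1 at 62.8 and 80.7 against 53.9 CPM, and the protease CTSC at 69.6 and 81.7 against 82.8 CPM. Secondary granule genes had a median log2 fold change of 0.0024 over 5 tested of 7 in the table, 1 below both and 1 above both, with CHI3L1 at 78.7 and 56.7 against 73.2 CPM and PGLYRP1, which binds peptidoglycan, at 28.4 and 32.3 against 26.3 CPM. Of 7 genes of gelatinase granules and secretory vesicles, 3 lay below both and 2 above both (median −0.071). FCN1, which monocytes also make, stood at 255 and 267 against 358 CPM, and the protease MMP25 at 65.5 and 66.8 against 46.6 CPM.

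The 4 genes of the NADPH oxidase in the table, the enzyme that makes superoxide, had a median log2 fold change of −0.24 and 2 of them lay below both doe-milk libraries, with NCF4 at 61.6 and 80.5 against 48.1 CPM, NCF1 at 208 and 177 against 151 CPM and RAC2 at 559 and 508 against 596 CPM. The 10 genes of G-CSF signalling and granulocyte transcription had a median of −0.038, with 3 below both and 2 above both. Among them SPI1, a myeloid transcription factor, stood at 233 and 206 against 199.8 CPM, CEBPB at 467 and 314 against 360 CPM, and CEBPD at 239 and 99.1 against 239.8 CPM. Of the ligands, CXCL8 stood at 855 and 222 against 380 CPM, between the doe-milk libraries, and CSF3, which encodes G-CSF, at 3.20 and 2.99 against 1.23 CPM. CXCL8 was 3.85-fold higher in doe 1 than in doe 2. A relation between CXCL8 and its receptors was not tested. None of the members of these lists passed the test over all 6 libraries (0% of genes), a fit that also recovered 0% of simulated 4-fold changes.

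Of 12 other S100 genes in the table, 10 were tested and 8 had negative fold changes, 5 of them below both doe-milk libraries (median −0.54). S100B stood at 121 and 187 against 69.99 CPM, S100A10 at 324 and 340 against 226 CPM, S100A11 (below both only after TMM scaling) at 257 and 169 against 173 CPM and S100A4 at 239.8 and 129.9 against 195 CPM. Of 4 proposed receptors of S100A8 and S100A9, 1 lay below both doe-milk libraries (median −0.29). This was TLR4, at 34.4 and 27.3 against 25.3 CPM.

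Markers of other blood cells were read beside the receptors. The summed level of 6 monocyte markers was 313 CPM in doe 1, 305 CPM in doe 2 and 367 CPM in replacer 1, with 0 of 6 below both doe-milk libraries and 2 above both. The 7 T cell markers summed to 1436 and 1160 against 1507 CPM and the 6 B cell markers to 2242 and 2134 against 2491 CPM. The 4 NK cell markers summed to 116 and 192 against 151 CPM. None of these 4 sums was lowest in replacer milk, and 1 of the T cell, 2 of the B cell and 0 of the NK cell markers lay below both doe-milk libraries. The sums were lowest there for 6 erythroid markers (1622 and 1800.2 against 617 CPM, of which the globin HBBC held 1619 and 1794 against 607 CPM), 5 plasma cell markers (1362 and 904 against 647 CPM), 7 platelet markers (307 and 407 against 302 CPM) and 6 eosinophil and basophil markers (116 and 134.5 against 79.2 CPM). Below both doe-milk libraries lay 1 of 4 erythroid markers tested, 4 plasma cell, 5 platelet and 1 of the eosinophil and basophil markers. Over all genes tested the share below both was 33.2%. No listed marker with a row had 0 counts in all 3 transcript-like libraries. The eosinophil and basophil list holds CCR3 at 56.6 and 105 against 48.7 CPM and FCER1A at 36.99 and 6.07 against 7.11 CPM. For comparison, the 3 receptors summed to 531 and 204 against 90.7 CPM. The part of these cell types in the receptors' values was not tested.

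**Figure D5:**
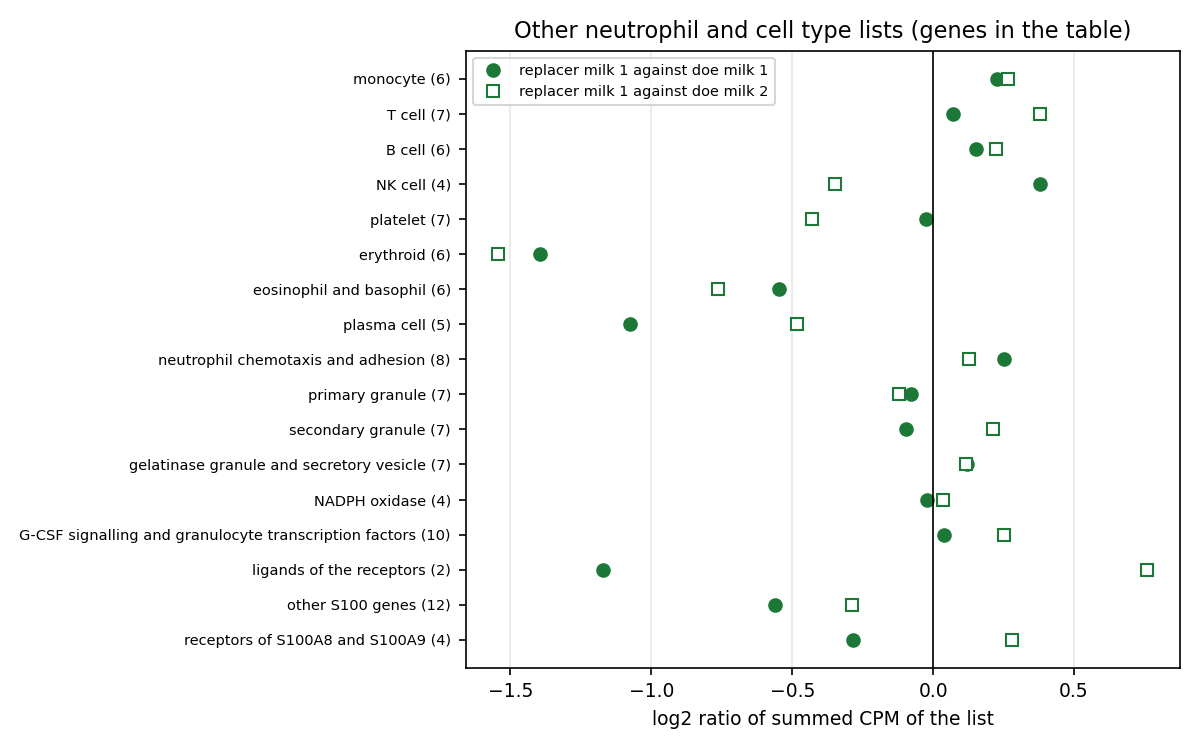
Log2 ratio of the summed CPM of each gene list, replacer 1 against doe 1 (filled circles) and doe 2 (open squares), with the number of genes in the table in brackets. Monocyte, T cell and B cell sums lie above 0 against both doe-milk libraries, and erythroid, eosinophil and basophil, and plasma cell sums below 0 against both.

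The genes most like the most counted receptor and the most counted of the other members were found by the Euclidean distance of centred log2 CPM over the 3 transcript-like libraries, among 9381 genes with a symbol and a mean of at least 5 CPM. For CSF3R they included FXYD4 (distance 0.040), TRPC6 (0.078), IL15RA (0.10) and G0S2 (0.11). G0S2, an inhibitor of the lipase ATGL, stood at 901 and 458 against 281 CPM. By distance from CSF3R, S100A9 ranked 105 (0.66), CXCR2 890 (1.08), LCN2 1472, S100A8 2545, CXCR1 9318 (2.24) and LTF 9349 (2.51). For S100A9 the nearest genes were ARG2 (0.0053), CD59 (0.018), FAM178B (0.021), ZFP36 (0.032) and BCL2L1 (0.044). With 3 libraries many genes share any given order, and the distances describe these libraries only.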

How the data were processed

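The count table was deposited by the authors as raw counts, 1 column per library. The submitters' processing notes name STAR 2.7.10a and featureCounts 2.0.0, after trimming with fastp 0.22.0. They give no parameters, strand setting, genome build or annotation. RNA was extracted with TRIzol and libraries made with an NEBNext Ultra II kit, per the labels' protocols. Groups came from the sample titles and columns from the sample descriptions.

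The members and gene lists were chosen with earlier results of these data known, as was the division into library kinds. CPM are counts over the library total. The whole table was tested with edgeR 4.0.16 (R 4.3.3) after filterByExpr and TMM scaling, by the robust quasi-likelihood test, two-sided, with a Benjamini-Hochberg adjusted p below 0.05. SE is the log2 fold change over the square root of F. Span was taken from the ARS1.2 gene table, in which 23022 of the genes (92.9%) were found. Its coordinates are left out because the build of the counts is unknown. The 17 lists hold 137 genes, 108 of them in the table. From each list up to 4 genes with the highest mean CPM in the transcript-like libraries could be named, whatever their fold change. LOC102169149 and ARPC2 were named for their position. Some genes that this rule would name are not reported here. The fits were tested on simulated data with known changes. Over all 6 libraries the fit recovered 0% of the 2-fold and 0% of the 4-fold changes. Alternatives were DESeq2 1.42.0, its size factors, no filter, the replicate block, each library left out and, added after seeing the data, no scaling beyond the library total. Figures used matplotlib 3.10.9.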

Additional observations from a re-analysis of the deposited data

How the results depend on the processing

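Over all 6 libraries the number of genes passing stayed at 0 in every alternative except DESeq2, which called 1 (TNNC2, named after its value was seen). Replicate numbers in the titles do not state a pairing of the samples. Deviations from the group means correlated at 0.901, −0.893 and 0.915 for numbers 1, 2 and 3. Numbers 1 and 3 join libraries of the same kind and number 2 libraries of different kinds. These correlations therefore cannot show whether the samples were paired. With the replicate block 0 genes passed. The fold change of LTF over all 6 libraries ran from −0.13 without doe 1 to 0.96 without doe 3 as each library was left out, and the cause of the turn was not tested. In the transcript-like libraries 3 genes passed in edgeR (LOC102181554 and LOC102186914 lower, LOC108637289 higher, named after their values were seen), 5 with the size factors of DESeq2 (each listed by a LOC number), 90 without the filter and 148 with DESeq2, and the cause was not tested. The number of members below both doe-milk libraries stayed at 6 under each scaling, filter and tool, and was 7 with either doe-milk library alone. The median log2 fold change of the 9 members ran from −0.85 without doe 1 to −0.51 without doe 2. In the span-proportional libraries 12205 to 16653 genes passed across the alternatives, and CSF3R passed without scaling (log2 fold change −0.56, adjusted p = 0.0175 in edgeR). Leaving out a library there, or in the transcript-like contrast, left no residual degrees of freedom, so that these are values with no test. Depth limits MPO in the transcript-like libraries and S100A8 in the span-proportional ones, where each has few counts.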
